A study of Gallus gallus with 4 samples.

Results

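The axon guidance ligand and receptor genes are the genes of the semaphorins, plexins, neuropilins, ephrins, Eph receptors, netrins, UNC5 receptors, Slits and Robos. They were chosen by symbol alone, as every gene whose symbol begins with *SEMA*, *PLXN*, *NRP*, *EFNA*, *EFNB*, *EPHA*, *EPHB*, *UNC5*, *SLIT* or *ROBO*, together with *NTN1*, *NTN3* and *NTN4*, and without the *SLITRK* genes. This gave 56 of the 30108 genes in the count matrices. They were 7 class 3 semaphorins, 11 semaphorins of classes 4 to 7, 6 plexins, 2 neuropilins, 8 EphA and 4 EphB receptors, 2 ephrin-A and 2 ephrin-B ligands, 3 netrins, 4 UNC5 netrin receptors, 3 Slits and 3 Robos. The last was *UNC50*, which shares letters with the netrin receptors but is not of that family. The symbol of the netrin receptor *DCC* matched no gene and is not used here.

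Guidance ligands steer growing axons by repulsion or attraction and act only on cells that carry the matching receptor. Class 3 semaphorins are secreted and bind a neuropilin that signals through an A-type plexin, while most transmembrane semaphorins bind plexins directly. Ephrins are tethered to the cell surface, bind Eph receptor kinases on the neighbouring cell and can signal back into their own cell, netrins bind DCC and UNC5 receptors, and Slits bind Robos. In the developing retina the ephrin-A/EphA and ephrin-B/EphB systems are laid down in opposing gradients along the nasal-temporal and dorsal-ventral axes, and in the mature retina semaphorins and plexins keep neurites within their own layers.

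The study compared retinas of wild-type chicks by single-cell RNA-sequencing (scRNA-seq), to learn how Müller glia (MG), the glia from which progenitor cells can form in the damaged chick retina, respond when microglia are missing. Eyes received clodronate liposomes, which kill the phagocytes that take them up, or saline at postnatal day 6, and then NMDA, an excitotoxin that kills mainly inner retinal neurons, or saline at day 10, and retinas were harvested 24 h later. The 4 groups were saline, clodronate+saline, NMDA and clodronate+NMDA, in which order all values are given below. Each group was 1 library, so no difference between groups could be tested and none has a replicate check.

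The libraries held 8050 to 11434 barcodes, of which 5781 to 9681 passed the study's limits on genes and mitochondrial UMIs. Total UMIs were 20614413 to 27033560 per library. Pairs of libraries shared 101 to 214 barcodes, 0.883% to 1.96% of a library. Cells were clustered and named again here from marker genes, so that names may differ from those of the study, and 415 to 623 cells per library stayed unnamed. The MG numbered 812, 440, 217 and 171, and all 10 MG markers were detected in them in each library. Cluster 12 held nearly all MG of the saline and clodronate+saline libraries (812 and 436) and cluster 18 those of the NMDA and clodronate+NMDA libraries (217 and 169). No cluster passed as microglia. Cluster 16, with 86, 13, 274 and 61 cells, had 6 of 8 microglial markers raised but was led by erythrocyte genes and stayed unnamed. The summed level of 8 microglial markers in MG was 6.22, 14.4, 6.31 and 24.6 CPM (UMIs per 1000000 UMIs of the class), with 1, 5, 4 and 5 of these markers at 0. In both clodronate libraries *C1QA*, *C1QB*, *C1QC*, *CSF1R* and *PTPRC* were at 0, and the sum came from *CCL4*, *CTSS* and *CD74*.

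A level below is the sum of a gene's UMIs over all cells of a class, as CPM of all UMIs of that class. A difference is the log2 ratio of 2 levels with a 95% interval. All intervals cover counting error only, not the variation between eyes. A gene is said to be past 2-fold where this ratio was at least 1 or at most -1 and the libraries together held at least 20 UMIs. This is a rule of size, and the share of all genes that met it is given beside each first count. The ratios were also computed without the study's upper limit on genes per cell, with other clusterings, with clusters weighted equally, with TMM scaling, without the 5% of cells with the highest doublet scores, as a mean over cells, and in gated cells, which held UMIs of at least 3 markers of their class and of at most 1 marker of other classes. Of 116 ratios chosen by size, 70 were under 2-fold or moved by over 1.5 times in at least 1 of these, and at least 1 such value is then given beside the ratio.

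Over all barcodes the members ranged from 4 UMIs for *ROBO3* and 6 for *SEMA3B* to 32850 for *ROBO1* and 91458 for *ROBO2*. *EPHA1*, with 19 UMIs, *NTN3*, with 42, and *NTN1*, with 69, were also sparse. In the saline library at least 20 UMIs were found for 47 members in amacrine cells, 40 in bipolar cells, 33 in MG, 26 in ganglion cells, 17 in horizontal cells, 15 in rods, 10 in the class of oligodendrocytes and non-astrocytic inner retinal glia (NIRG cells) and 6 in cones. These numbers follow the depth of each class as well as its expression, since bipolar cells numbered 5060 and cones 163.

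Of the 42 members with at least 20 UMIs in their highest named class of the saline library, 9 were highest in ganglion cells, 8 in MG, 8 in amacrine cells, 6 in bipolar cells, 5 in oligodendrocytes and NIRG cells, 4 in horizontal cells, 2 in cones and none in rods. For 19 of the 42 members the same class was highest in every library where it held at least 50 cells. Among all genes this held for 42.3% of 9192, a share close to that of the members.

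Ganglion cells, whose axons leave the eye, held the highest levels of *ROBO2*, *SEMA3E*, *EPHA3*, *EPHA4* and *NRP1* among the named classes in every library. An unnamed cluster described among the other observations held more *EPHA3* in clodronate+saline and clodronate+NMDA, at 150.2 and 247 CPM. *ROBO2* (chromosome 1, 97041297 to 97503230 in the RefSeq annotation of GRCg7b), a receptor for Slits that in mice guides retinal axons toward the optic nerve head, stood at 3941, 3326, 3120.0 and 3632 CPM in ganglion cells. Its level in amacrine cells, the next class of the saline library, was 927, 907, 521 and 580.1 CPM. Horizontal cells held *ROBO2* at 859, 1396, 1247 and 2229 CPM and were next in clodronate+saline, NMDA and clodronate+NMDA. *EPHA3*, a receptor for ephrin-A ligands that is graded across the chick retina, measured 201, 85.6, 210.2 and 169 CPM in ganglion cells against 55.4, 37.6, 18.5 and 25.5 CPM in amacrine cells. *SEMA3E*, a ligand of plexin-D1, had 157, 30.1, 65.7 and 132 CPM, a wide range in which the clodronate+saline library lay close to the 26.5 CPM of its amacrine cells.

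Among the named classes bipolar cells led for *ROBO1*, *SEMA5A*, *UNC5C* and *SLIT3*. *SEMA5A*, a transmembrane ligand that in mice restricts neurites to the inner plexiform layer, was at 429, 571, 435 and 519 CPM in bipolar cells and 4.91 times above rods in the saline library. *ROBO1* (chromosome 1, 96051998 to 96759720), which lies beside *ROBO2* on that chromosome, was at 894, 1059, 948 and 909.7 CPM, 2.74 times the level of oligodendrocytes and NIRG cells. *UNC5C*, a receptor that mediates repulsion by netrin, had 362, 361, 389.8 and 515 CPM, 1.69 times the level of amacrine cells. These 3 levels kept within a narrow range over the libraries, while *ROBO1* varied widely among clusters of bipolar cells, from 93.8 CPM in cluster 6 to 1838 CPM in cluster 3 of the saline library.

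Of these classes, amacrine cells led in every library for *EPHB6*, a kinase-inactive Eph receptor in mammals, and *EPHA6*. *EPHB6* measured 84.0, 97.7, 46.6 and 56.1 CPM and stood 3.30 times above MG. *EPHA6* at 152, 138, 162 and 192 CPM was nearly level with ganglion cells, at 149.8, 134, 145 and 132 CPM. Horizontal cells led for *SEMA3F* (chromosome 12, 3356148 to 3373607), a secreted ligand of neuropilin-2, at 66.2, 238, 125 and 189.7 CPM, 4.42 times above ganglion cells in the saline library.

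Glial classes held the secreted semaphorins *SEMA3A*, *SEMA3D* and *SEMA3G*. *SEMA3G* was at 21.9, 6.65, 29.2 and 13.4 CPM in MG. Horizontal cells, the next class of the saline library, had 1.61 CPM there, from 1 UMI with an interval of 0.0409 to 8.99, and 0 in the others. Rods had 0, 3.21, 1.75 and 0 CPM. *SEMA3A*, the classical collapsing factor for growth cones, had 238, 200.5, 261 and 158 CPM in MG and 116, 132, 213 and 128 CPM in rods. *SEMA3D* was highest in oligodendrocytes and NIRG cells, at 454, 539.5, 919.8 and 721 CPM. This class also led for *UNC5A*, with 116, 87.1, 52.2 and 146 CPM, and *SEMA4D*, a ligand of B-type plexins, with 151, 230.4, 113 and 124 CPM. It held 74, 86, 80 and 20 cells, so its clodronate+NMDA values rest on few cells. In cones, *SEMA6C* was at 139, 66.8, 107 and 85.0 CPM, above rods at 87.3, 54.5, 61.2 and 72.3 CPM.

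In MG, the NMDA library had lower levels of several semaphorins, plexins and netrin receptors than saline. Some Eph receptors, *EFNB2* and *SEMA6A* were higher, but the share of higher members was close to that of all genes. Of 39 members with enough UMIs in the saline and NMDA libraries, 6 were higher past 2-fold (15.4%, against 13.1% of all genes) and 14 were lower (35.9%, against 19.9% of all genes). The median log2 ratio of the members was -0.55, and that of all genes was -0.04. By family, 3 of 6 EphA and 1 of 4 EphB receptors, 1 of 2 ephrin-B ligands and 1 of 9 semaphorins of classes 4 to 7 with enough UMIs were higher. Both UNC5 receptors, 2 of 4 plexins, 4 of 9 semaphorins of classes 4 to 7 and the only measurable neuropilin and netrin were lower. Also lower were 1 of the 6 EphA and 1 of the 4 EphB receptors, 1 of 2 ephrin-A ligands and 1 of 4 class 3 semaphorins.

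Among the ligands, *EFNB2* (chromosome 1, 141090399 to 141134812), the ephrin-B2 that binds EphB receptors and EphA4, was at 46.8, 33.2, 174 and 58.2 CPM in MG. The NMDA library stood alone above the other 3. The NMDA over saline log2 ratio was 1.90 (95% interval 1.60 to 2.20), and clodronate+NMDA over NMDA was -1.58 (-2.05 to -1.14). In gated MG the first was 1.49 (0.88 to 2.13). *EFNB1*, the other ephrin-B ligand, stayed within 2-fold at 200.2, 187, 130.1 and 253 CPM.

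*SEMA6A* (chromosome Z, 73093177 to 73206857), a transmembrane ligand of plexin-A2 and plexin-A4, was at 148, 152, 498 and 200.5 CPM. As for *EFNB2*, the NMDA library was highest and clodronate+NMDA next. The NMDA over saline ratio of *SEMA6A* was 1.75 (1.58 to 1.92) and its clodronate+NMDA over NMDA ratio -1.31 (-1.56 to -1.07). The 2 receptors were low in MG, *PLXNA2* at 9.48, 12.2, 1.58 and 2.24 CPM and *PLXNA4* at 12.1, 16.1, 7.88 and 5.60 CPM. *PLXNA2* was past 2-fold lower for NMDA over saline and for clodronate+NMDA over clodronate+saline. *PLXNA4* was so in the last comparison only. Its intervals in saline (8.72 to 16.5 CPM) and NMDA (3.78 to 14.5 CPM) overlapped.

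The share of MG with a UMI of *SEMA6A* gave the same picture at equal depth. After each cell was thinned to 2000 UMIs, 24.6%, 25.6%, 55.3% and 25.9% of 806, 433, 217 and 170 MG held one, against 4.40%, 9.73%, 8.95% and 11.1% of bipolar cells. Unthinned, the shares in MG were 43.3%, 42.3%, 89.9% and 55.6%. For *EFNB2*, 7.32%, 6.0%, 24% and 10% of thinned MG held a UMI (unthinned 14.8%, 10.7%, 44.2% and 22.8%). Bipolar cells thinned in the same way stood at 13.2%, 7.78%, 10.5% and 11.7% (unthinned 5.22%, 4.10%, 6.72% and 6.66%). At 1000 UMIs, which most bipolar cells reached, the shares were 5.17%, 3.19%, 14.3% and 4.68% in MG against 4.40%, 2.85%, 4.65% and 4.68% in bipolar cells, and the NMDA library had the widest gap at both depths. Thinning to 2000 UMIs left out 0 to 7 MG per library but most bipolar cells, since median UMIs per cell were 4128 to 6050 in MG and 1194 to 1413 in bipolar cells.

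The Eph receptors that were higher after NMDA had low levels throughout. *EPHB3*, a receptor for ephrin-B ligands, had 3.85, 21.0, 18.9 and 22.4 CPM, with the saline library alone low. Its log2 ratio was 2.30 (1.27 to 3.39) for NMDA over saline and 2.45 (1.51 to 3.48) for clodronate+saline over saline, ratios that share the saline library, and the first was 1.25 (-1.11 to 3.94) in gated MG. *EPHA2* had 4.15, 2.22, 18.1 and 12.3 CPM, higher in both NMDA-treated libraries, with an NMDA over saline ratio of 2.13 (1.11 to 3.20), and 3.10 (0.06 to 8.62) in gated MG. *EPHA5* was at 10.7, 13.3, 31.5 and 17.9 CPM, a ratio of 1.56 (0.88 to 2.26) that was 0.85 without the upper limit on genes per cell and 4.69 (2.02 to 10.07) in gated MG. *EPHA3* was at 11.0, 6.09, 31.5 and 5.60 CPM, with ratios of 1.52 (0.84 to 2.21) for NMDA over saline and -2.49 (-4.19 to -1.15) for clodronate+NMDA over NMDA, the last being -1.46 when a mixed cluster described below was added to the MG. Only the NMDA library was high for *EPHA3*.

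**Figure D1:**
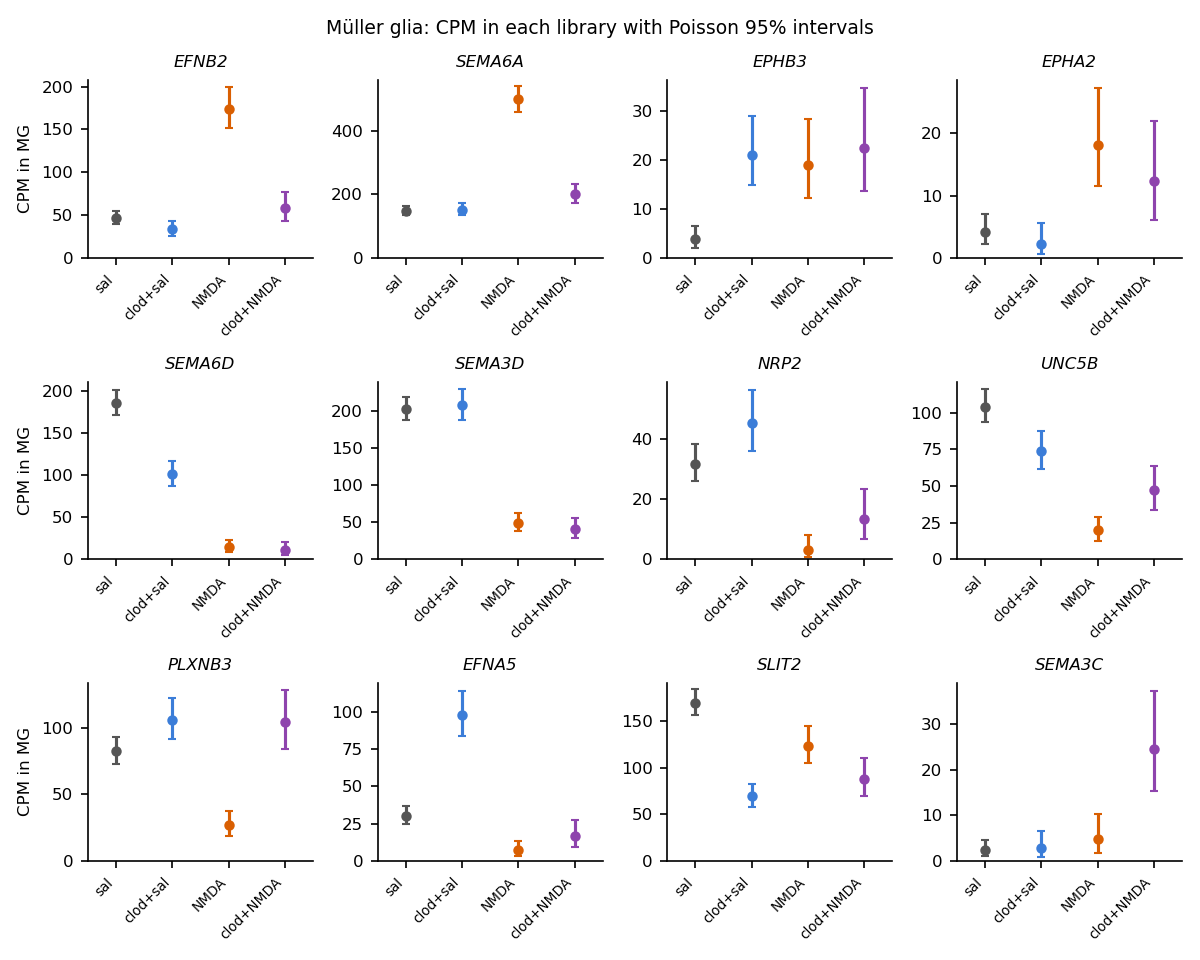
Each panel plots 1 member in MG, with the library on the x axis and CPM with its Poisson 95% interval on the y axis, both from 0. *EFNB2* (174 CPM) and *SEMA6A* (498 CPM) peak in the NMDA library, while *SEMA6D* and *SEMA3D* are low in both NMDA-treated libraries.

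The member furthest below saline by the bound of its interval was *SEMA6D* (chromosome 10, 9338762 to 9943174), a transmembrane ligand of plexin-A1, at 185, 101, 15.0 and 11.2 CPM. Both NMDA-treated libraries lay far below the other 2. Its log2 ratio was -3.63 (-4.37 to -2.97) for NMDA over saline and -3.18 (-4.26 to -2.27) for clodronate+NMDA over clodronate+saline, the first being -2.93 in gated MG and the last -1.98 at a clustering resolution of 0.4. At 2000 UMIs 30.9%, 18.2%, 3.69% and 2.35% of MG held a *SEMA6D* UMI (unthinned 51.2%, 29.8%, 8.76% and 5.85%), against 6.59%, 8.95%, 3.58% and 3.23% of bipolar cells. In the NMDA-treated libraries the shares in MG were thus close to or below those of bipolar cells.

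*SEMA3D*, a secreted class 3 semaphorin, was at 202, 207, 48.9 and 40.3 CPM, again low in both NMDA-treated libraries. The ratios were -2.05 (-2.45 to -1.67) without and -2.36 (-2.90 to -1.87) with prior clodronate. *NRP2*, the co-receptor of class 3 semaphorins, was at 31.7, 45.4, 3.15 and 13.4 CPM, with ratios of -3.33 (-5.23 to -1.93) and -1.76 (-2.77 to -0.87), the last being -2.52 without the upper limit on genes. The NMDA library was the lowest and rested on few UMIs, since 3 UMIs correspond to 2.36 CPM there.

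Of the netrins and UNC5 receptors, *UNC5B* and *NTN4* were lower in the NMDA library of MG. *UNC5B*, a repulsive netrin receptor, was at 104, 73.7, 19.7 and 47.0 CPM, with ratios of -2.40 (-3.05 to -1.82) for NMDA over saline and 1.26 (0.51 to 2.03) for clodronate+NMDA over NMDA, the last being 0.81 without the upper limit. *NTN4*, a netrin that in mammals binds laminins of basement membranes, was at 20.1, 11.6, 1.58 and 6.72 CPM, a ratio of -3.68 (-6.75 to -1.77) that was at most -1.48 in gated MG, where the NMDA library held none. *UNC5C* at 11.8, 21.0, 5.52 and 17.9 CPM was -1.10 (-2.51 to 0.07), an interval that includes 0.

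The other members past 2-fold lower after NMDA were *EFNA5*, *EPHA6*, *EPHB6*, *PLXNA2*, *PLXNB3*, *SEMA4G*, *SEMA5B* and *SEMA7A*, with log2 ratios from -2.69 for *EPHB6* to -1.09 for *SEMA7A*. Several abundant MG members were not past 2-fold. *SEMA3A* was 0.13 (-0.06 to 0.32), *PLXNB2*, at 160, 214, 132 and 195 CPM, was -0.28 (-0.54 to -0.03), *SLIT2* was -0.46 and the Slit receptor *ROBO1*, at 28.7, 43.8, 25.2 and 29.1 CPM, was -0.19.

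NMDA had its own comparison in the clodronate arm, with no library in common. Of 34 members with enough UMIs in MG of the clodronate+saline and clodronate+NMDA libraries, 2 were higher (5.88%, against 8.04% of all genes) and 9 were lower (26.5%, against 14.1% of all genes), with a median of -0.28 against -0.07 for all genes. *EFNA5*, *NRP2*, *PLXNA2*, *SEMA3D* and *SEMA6D* were lower in both arms, which is 5 of the 14 members lower without clodronate and 5 of the 9 lower with it (35.7% and 55.6%). Over all genes, 771 were lower in both arms, 37.9% and 59.8% of the genes lower in each, so the overlap of the members was close to that of all genes. No member with enough UMIs was higher in both, whereas over all genes 432 were, 32.2% and 58.9% of those higher in each. *EPHA2* was at 2.48 (0.72 to 4.58) in the clodronate arm on fewer than 20 UMIs. *EFNB2* had a ratio of 0.81 and *SEMA6A* of 0.40 in the clodronate arm, and the difference between the arms was not tested.

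**Figure D2:**
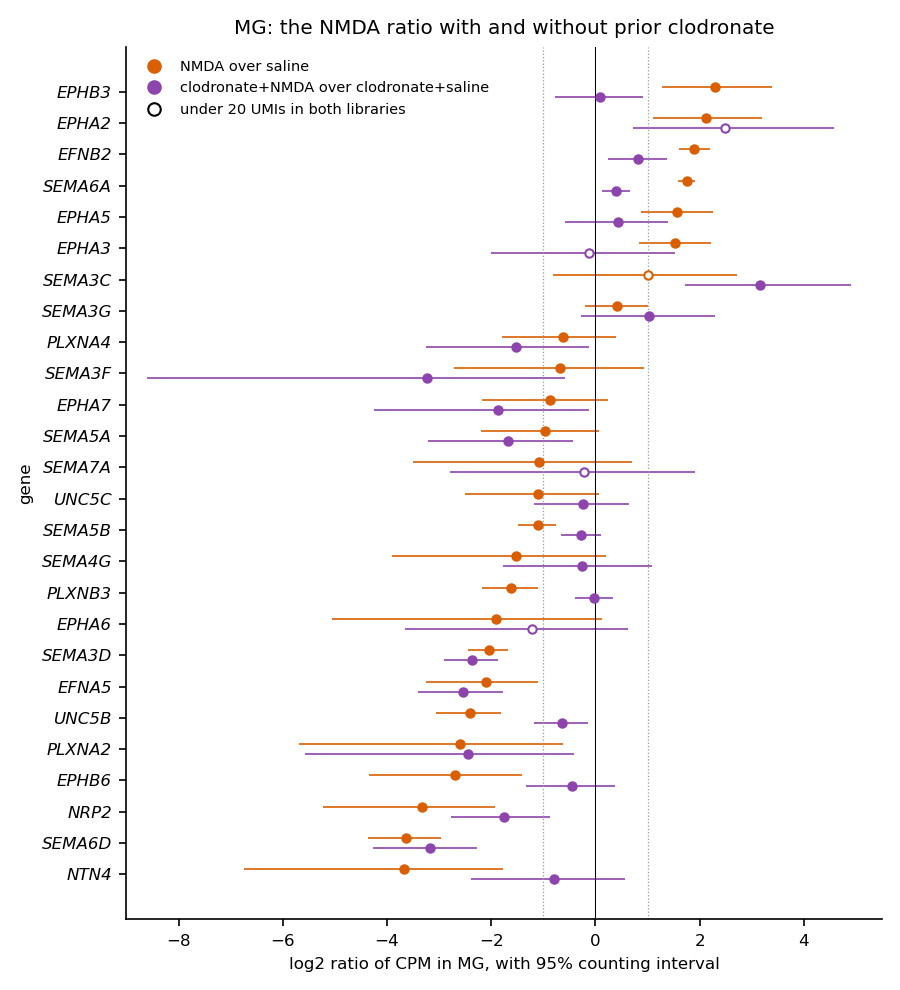
For the 26 members past 2-fold in either arm (rows), the x axis gives the log2 ratio of CPM in MG with its 95% counting interval, NMDA over saline in orange and clodronate+NMDA over clodronate+saline in purple, with open points under 20 UMIs. Both points lie well below 0 for *SEMA6D* (-3.63 and -3.18) and *SEMA3D* (-2.05 and -2.36), whereas *EFNB2* is at 1.90 and 0.81.

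The 2 members higher in the clodronate+NMDA library than in clodronate+saline were class 3 semaphorins. *SEMA3C*, also a neuropilin ligand, was at 2.37, 2.77, 4.73 and 24.6 CPM, high in that library alone. Its ratio was 3.15 (1.72 to 4.91) over clodronate+saline and 2.38 (1.03 to 3.97) over NMDA. The first was 1.59 without the upper limit on genes per cell, and at least 0.91 in gated MG, where clodronate+saline held none. The second was 1.18 (-1.18 to 3.87) in gated MG. *SEMA3G* was the other, at 1.02 with an interval from -0.27 to 2.30, and 0.17 in gated MG.

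Further lower members of the clodronate arm were *EPHA7*, *PLXNA4*, *SEMA3F* and *SEMA5A*. *SEMA3F* was at 5.04, 10.5, 3.15 and 1.12 CPM in MG, a ratio of -3.23 (-8.61 to -0.58) that rests on 19 UMIs in the clodronate+saline library and was -2.26 at a clustering resolution of 0.4. The other 3 had ratios from -1.86 for *EPHA7* to -1.52 for *PLXNA4*.

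Clodronate before NMDA gave a mixed picture in MG. Among 28 members with enough UMIs in the NMDA and clodronate+NMDA libraries, 6 were higher with clodronate (21.4%, against 7.52% of all genes) and 6 were lower (21.4%, against 6.46% of all genes), and the median was -0.08 against 0.04 for all genes. This comparison shares the NMDA library with NMDA over saline, so an extreme value in that library moves both ratios in opposite directions.

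Among the members higher with clodronate, *PLXNB3*, which in mammals is a receptor for semaphorin-5A, was at 82.3, 106, 26.8 and 104 CPM, with the NMDA library alone low. Its ratio was 1.96 (1.38 to 2.57). *EPHB6* had 25.5, 26.0, 3.94 and 19.0 CPM and a ratio of 2.27 (0.77 to 4.07), or 3.03 (-0.01 to 8.55) in gated MG, again with only the NMDA library low. *UNC5C* was 1.70 (0.34 to 3.22) but 0.41 with the mixed cluster added and -0.88 in gated MG, so that its direction was not stable.

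Those lower with clodronate were, besides *EFNB2*, *SEMA6A* and *EPHA3*, the receptor *EPHB1* and the ligands *SEMA4B* and *SEMA3G*. *EPHB1* was at 31.7, 22.7, 62.3 and 21.3 CPM, a ratio of -1.55 (-2.35 to -0.81), or -2.26 in gated MG. *SEMA4B* was at 30.2, 19.9, 41.0 and 16.8 CPM, a ratio of -1.29 (-2.22 to -0.44) that was -0.44 (-0.94 to 0.03) without the upper limit on genes. For all 6 members the NMDA library was the highest of the 4.

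In undamaged retinas fewer members differed with clodronate. Of 39 members with enough UMIs in MG of the saline and clodronate+saline libraries, 4 were higher (10.3%, against 5.72% of all genes) and 2 were lower (5.13%, against 3.80% of all genes). The median was 0.04 for members and 0.10 for all genes. Besides *EPHB3*, the higher ones were *EFNA5*, described below, *SLIT1*, at 3.55, 10.5, 3.94 and 0 CPM with a ratio of 1.57 (0.45 to 2.74), and *SEMA3F*, at 1.06 (0.04 to 2.10) and 0.05 in gated MG.

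The lower ones were a Slit and a semaphorin. *SLIT2* (chromosome 4, 74511140 to 74756644), a secreted repellent of Robo-bearing axons, was at 170.3, 69.8, 124 and 88.5 CPM, a ratio of -1.29 (-1.58 to -1.01), with the saline library highest. *SEMA3G* was -1.72 (-2.74 to -0.83), and -0.67 in gated MG. Between the undamaged and the damaged pair, *EFNA5* was higher and *SEMA3G* lower with clodronate in both. In the damaged pair *EFNA5* rested on 9 UMIs in NMDA and 15 in clodronate+NMDA. Its levels there were 7.09 (3.24 to 13.5) and 16.8 (9.40 to 27.7) CPM, with overlapping intervals. Those of *SEMA3G* were 29.2 (20.5 to 40.2) and 13.4 (6.94 to 23.5) CPM, which overlapped as well. Over all genes, 57 were higher in both pairs, 9.53% and 9.24% of those higher in each, and 27 lower, 6.80% and 5.09%.

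Values that moved with the MG comparisons were as follows. Without the upper limit of 2500 genes per cell, and with clustering repeated, MG numbered 839, 468, 655 and 308, and with the limit at a clustering resolution of 0.4 they numbered 812, 446, 440 and 363. Cluster 14, with 0, 4, 268 and 209 cells, carried markers of MG and of rods and was left unnamed. Cluster 19, with 146, 217, 1 and 10 cells, carried markers of both as well and was also left unnamed. Only cluster 14 was added to the MG as the mixed cluster, and with cluster 14 the MG numbered 812, 444, 485 and 380. The 10 MG markers summed to 33315, 32731, 24980 and 27744 CPM in MG, and the rod markers to 259.8, 145, 166 and 82.9 CPM. Erythrocyte markers summed to 4.15, 1.11, 173 and 0 CPM, and those of oligodendrocytes and NIRG cells to 38.2, 37.1, 149.8 and 111 CPM. Their part in the results was not tested.

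Beyond the ligands and receptors, 40 of 44 further guidance genes listed from the pathway were found, namely other receptors, adhesion co-receptors and cytoplasmic transducers. In MG, 30 had enough UMIs in the saline and NMDA libraries, and 6 were higher and 8 lower past 2-fold (against the 13.1% and 19.9% of all genes). *FARP1*, an exchange factor for small GTPases, was at 13.0, 15.5, 229 and 43.7 CPM (4.14 for NMDA over saline and -2.39 for clodronate+NMDA over NMDA). *TRIO*, an exchange factor that acts in netrin signalling, was at 97.5, 128, 435 and 223 CPM (2.16), and *NEO1*, a receptor of netrins and of repulsive guidance molecules, at 114, 92.5, 266 and 106 CPM (1.22). These 3 genes are examples, and the NMDA library was the highest for each, as it was for *EFNB2* and *SEMA6A*. It was also the highest for *MICAL2*, at 0.889, 0.554, 17.3 and 1.12 CPM. Of the 6 higher genes *GPC1* differed, at 28.4, 39.9, 71.7 and 77.3 CPM, with clodronate+NMDA the highest.

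In the other direction, *ABLIM1*, an actin-binding protein of the netrin pathway, was at 265, 231, 33.9 and 121 CPM (-2.97 for NMDA over saline and 1.84 for clodronate+NMDA over NMDA). *DPYSL4*, of the family that relays semaphorin signals, was at 74.1, 63.1, 12.6 and 56.0 CPM (-2.55 and 2.15), while its relative *DPYSL3* was at 2.96, 8.86, 55.2 and 37.0 CPM (4.22 for NMDA over saline). Of the other lower genes, *CNTN1*, at 340.1, 359, 85.9 and 180.3 CPM, and *PAK1*, at 146, 90.8, 34.7 and 73.9 CPM, were also lowest in NMDA. *DPYSL2*, at 1631, 984, 792 and 804 CPM, and *MICAL3*, at 268, 199, 113 and 129.9 CPM, were close to level in both NMDA-treated libraries. *NTNG2* and *RGMA* had low levels throughout. Of the further genes, 1 was higher and 1 lower for clodronate+saline over saline (32 with enough UMIs, against 5.72% and 3.80% of all genes). They were 5 and 4 of 26 for clodronate+NMDA over NMDA (against 7.52% and 6.46%) and 3 and 2 of 26 for clodronate+NMDA over clodronate+saline (against 8.04% and 14.1%).

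*EFNA5* (chromosome Z, 48721421 to 48928978), which encodes ephrin-A5, the repellent ligand of EphA receptors, differed with clodronate in opposite directions in glia and bipolar cells. In MG it was at 30.2, 98.0, 7.09 and 16.8 CPM, with a clodronate+saline over saline ratio of 1.70 (1.34 to 2.06) and a clodronate+NMDA over clodronate+saline ratio of -2.54 (-3.41 to -1.78). The first was 1.04 (0.15 to 1.95) in gated MG and 2.13 (1.71 to 2.56) without the cells of highest doublet scores. The clodronate+saline library was the highest. In ganglion cells it was at 95.9, 241, 65.7 and 105 CPM, a ratio of 1.33 (0.86 to 1.80) for clodronate+saline over saline and -1.20 (-1.67 to -0.74) for clodronate+NMDA over clodronate+saline, the last being -0.84 without the upper limit on genes.

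In bipolar cells *EFNA5* was at 433, 112, 297 and 97.2 CPM, low in both clodronate libraries. The ratios were -1.95 (-2.07 to -1.82) for clodronate+saline over saline and -1.61 (-1.77 to -1.45) for clodronate+NMDA over NMDA. Most of its UMIs lay in cluster 1, at 1382, 364, 1050.3 and 349.9 CPM. Clusters 4, 6 and 7 were also below saline in clodronate+saline, cluster 4 at 99.6, 53.0, 34.3 and 27.1 CPM, cluster 6 at 29.2, 6.94, 26.0 and 6.79 CPM and cluster 7 at 92.4, 36.4, 35.2 and 41.9 CPM. Saline and clodronate+saline were closer in cluster 3, at 31.0 and 26.4 CPM, and cluster 5, at 5.07 and 5.35 CPM. With the clusters weighted equally the ratios were -1.74 and -1.42, and in gated cells -2.16 and -2.20.

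Cells with a UMI of *CA13* or *NXPH2*, genes picked after the values were seen, made up 19.4%, 15.9%, 19.7% and 13.5% of bipolar cells. In them *EFNA5* was at 1923, 581, 1343 and 569 CPM, and in the other bipolar cells at 52.2, 16.6, 24.6 and 9.38 CPM. The clodronate+saline over saline ratio was -1.73 (-1.86 to -1.59) in the first and -1.66 (-2.04 to -1.29) in the second, against -1.95 over all bipolar cells. When the members were kept among the variable genes, a bipolar cluster led by *CA13* and *EFNA5* held 724, 360, 789 and 161 cells. Since the members include *EFNA5*, the size of this cluster is not independent of the *EFNA5* level. The part of the make-up of the bipolar cells in these ratios was not tested. In amacrine cells as a whole *EFNA5* was at 198, 247, 212 and 190.2 CPM and in cones at 43.2, 40.4, 41.3 and 45 CPM, where the libraries lay close together. Within the amacrine cells cluster 2 was at 193, 257, 241 and 214 CPM. Cluster 8 was at 177, 169, 93.3 and 51.7 CPM and cluster 9 at 271, 372, 363 and 175 CPM, where the libraries lay further apart.

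**Figure D3:**
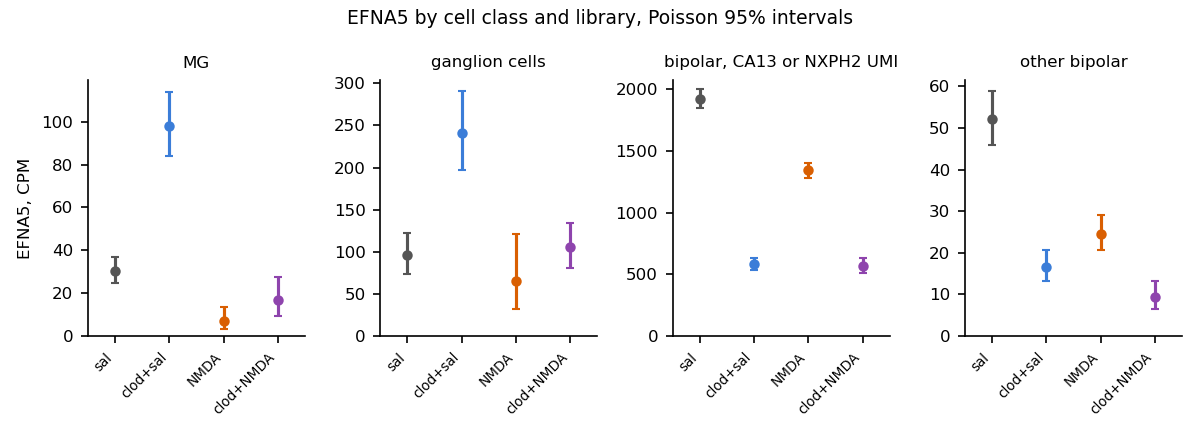
*EFNA5* in MG, ganglion cells and bipolar cells with or without a UMI of *CA13* or *NXPH2* (panels), with the library on the x axis and CPM with its Poisson 95% interval on the y axis. Clodronate+saline is the highest library in MG (98.0 CPM) and ganglion cells (241 CPM), and both clodronate libraries are low in both sets of bipolar cells.

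Because ephrins and Eph receptors are graded across the retina, 5 genes that mark its sides were read in the same cells, also chosen after the values were seen. In MG the dorsal genes *TBX5* and *ALDH1A1* had 80, 4, 5 and 17 and 84, 2, 1 and 7 UMIs, and the ventral genes *VAX1* and *ALDH1A3* had 19, 22, 7 and 0 and 7, 24, 2 and 0 UMIs. For these libraries the study reported *ALDH1A1* as downregulated in MG after damage and where microglia were ablated. The temporal gene *FOXD1* had at most 1 UMI in any library. The 5 genes thus do not show the nasal-temporal axis, along which ephrin-A and EphA genes such as *EFNA5* and *EPHA3* are graded. In bipolar cells *VAX1* had 32, 108, 47 and 4 UMIs and *ALDH1A3* 12, 11, 11 and 2 UMIs. In amacrine cells *TBX5* had 112, 38, 41 and 82 UMIs. Per UMI of these classes, the clodronate+saline library was thus the highest for *VAX1* in MG and bipolar cells and the lowest for *TBX5* in MG and amacrine cells. The clodronate+NMDA library was the lowest for *VAX1* in MG and bipolar cells, at 0 and 1.02 CPM. Its *TBX5* was at 19.0 CPM in MG and 20.7 CPM in amacrine cells, against 23.7 and 23.9 CPM in saline. In MG *TBX5* was also low in NMDA, at 3.94 CPM. The part of these side genes in the ephrin and Eph results was not tested.

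In bipolar cells 7 of 48 members were past 2-fold in either direction for NMDA over saline (14.6%, against 6.48% of all genes), 9 of 47 for clodronate+saline over saline (19.1%, against 7.25%), 9 of 45 for clodronate+NMDA over NMDA (20%, against 9.34%) and 4 of 41 for clodronate+NMDA over clodronate+saline (9.76%, against 7.52%). These counts moved with the settings. With at least 50 UMIs the first was 1, the third 3 and the last 1. In gated cells the first was 2, the second 3 and the third 3. At 1.5-fold the counts were 12, 15, 17 and 16, and with at least 1 UMI the last was 10. The share of all genes was not computed for these settings. *SLIT3* was at 39.3, 51.0, 83.3 and 52.5 CPM, highest in the NMDA library, with an NMDA over saline ratio of 1.08 (0.87 to 1.31). In these cells erythrocyte markers summed to 7.38, 6.96, 1871 and 2.30 CPM and MG markers to 948, 571, 1265 and 576 CPM, also highest in NMDA, and their part in the bipolar results was not tested. *SLIT1* was at 5.14, 11.5, 1.72 and 5.87 CPM, lower in NMDA at -1.58 (-2.67 to -0.58) and higher in both clodronate libraries, at 1.16 (0.53 to 1.82) over saline, or 0.76 in gated cells, and 1.77 (0.70 to 2.91) over NMDA.

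Among bipolar semaphorins, *SEMA5B*, a relative of *SEMA5A*, was at 41.4, 84.9, 62.7 and 71.9 CPM and *SEMA6A* at 25.7, 54.8, 45.9 and 56.9 CPM. Saline was the lowest library for both, and clodronate+saline over saline was 1.04 (0.82 to 1.26) and 1.09 (0.82 to 1.38), the first being 0.79 in gated cells. *SEMA4G* was at 29.8, 21.2, 24.4 and 8.16 CPM, low in clodronate+NMDA alone, at -1.58 (-2.17 to -1.03) over NMDA and -1.38 (-1.99 to -0.81) over clodronate+saline. *EPHA3* was at 36.1, 15.0, 21.9 and 13.5 CPM, with the saline library highest and a clodronate+saline over saline ratio of -1.27 (-1.65 to -0.91).

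The other bipolar members named by size had levels under 10 CPM in every library. For NMDA over saline *EPHA2* was 2.01 (0.41 to 4.03) and 0.00 in gated cells, *UNC5D* 1.5 (0.12 to 3.11), *EPHB6* -1.58 (-2.67 to -0.58) and *SEMA3E* -1.84 (-3.64 to -0.33), or -0.59 in gated cells. *SEMA6C* was -1.69 (-2.87 to -0.65) for clodronate+saline over saline, or -2.65 in gated cells, and *SEMA3D* -2.81 (-5.94 to -0.81), or -2.01, for clodronate+NMDA over NMDA. *SEMA6B* was -2.77 (-5.13 to -1.09), or -1.78 in gated cells, and *UNC5A* -1.24 (-2.35 to -0.24) for clodronate+NMDA over clodronate+saline.

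In amacrine cells *SLIT1* and *SLIT2* were low in both NMDA-treated libraries, while *SLIT3*, at 7.05, 5.17, 10.8 and 3.79 CPM, was not. Past 2-fold were 7 of 49 members for NMDA over saline (14.3%, against 10.5% of all genes), 2 of 50 for clodronate+saline over saline (4.0%, against 5.91%), 6 of 49 for clodronate+NMDA over NMDA (12.2%, against 7.19%) and 6 of 50 for clodronate+NMDA over clodronate+saline (12.0%, against 12.1%). *SLIT2* was at 274, 235, 93.8 and 115 CPM, low in both NMDA-treated libraries, with an NMDA over saline ratio of -1.55 (-1.73 to -1.37). The level was lower in NMDA than in saline in each of the 3 amacrine clusters, at 346 and 124 CPM in cluster 2, 48.6 and 29.7 CPM in cluster 8 and 332 and 102 CPM in cluster 9. *SLIT1* was at 47.9, 44.4, 14.0 and 17.7 CPM, with ratios of -1.77 (-2.26 to -1.31) and, in the clodronate arm, -1.33 (-1.72 to -0.95). In gated cells the NMDA over saline ratios were -1.11 for *SLIT2* and -1.14 for *SLIT1*. The amacrine markers themselves summed to 10371, 9907, 5803 and 7723 CPM in this class and erythrocyte markers to 5.34, 2.04, 141 and 0.506 CPM, and their part in these results was not tested.

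*EPHA3* in amacrine cells was at 55.4, 37.6, 18.5 and 25.5 CPM, a ratio of -1.58 (-2.0 to -1.17) for NMDA over saline that was -0.88 in gated cells. *SEMA3A* was at 67.3, 103, 63.9 and 29.1 CPM, lowest in clodronate+NMDA, with ratios of -1.14 (-1.48 to -0.80) over NMDA and -1.82 (-2.12 to -1.54) over clodronate+saline. The first of these was -0.32 in gated cells and the second -2.44 without the upper limit on genes. *PLXNA2* was at 59.4, 64.4, 40.9 and 27.1 CPM, also lowest there, at -1.25 (-1.57 to -0.95) over clodronate+saline, and -0.93 with clusters weighted equally.

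*SEMA3F* went the other way, at 5.34, 14.2, 16.7 and 17.2 CPM, with saline alone low and ratios of 1.65 (0.94 to 2.39) for NMDA and 1.41 (0.76 to 2.10) for clodronate+saline over saline. In gated cells these were 0.78 and 0.45. *SEMA3E* was 1.08 (0.66 to 1.52) for clodronate+NMDA over NMDA, but 0.36 with clusters weighted equally and 2.61 (1.33 to 4.27) in gated cells. *EPHA8* at 6.63, 2.31, 7.17 and 2.28 CPM was low in both clodronate libraries, with ratios of -1.52 (-2.46 to -0.62) and -1.66 (-2.95 to -0.50), the last being -1.06 with clusters weighted equally, and *SLIT3* was -1.50 (-2.48 to -0.60) for clodronate+NMDA over NMDA but 0.30 in gated cells.

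Horizontal cells had few members past 2-fold, with 1 of 23 for NMDA over saline (4.35%, against 5.76% of all genes), 3 of 23 for clodronate+saline over saline (13.0%, against 8.37%), 2 of 23 for clodronate+NMDA over NMDA (8.70%, against 7.46%) and 3 of 23 for clodronate+NMDA over clodronate+saline (13.0%, against 8.02%). *SEMA3F*, the member most held by this class, had a clodronate+saline over saline ratio of 1.85 (1.33 to 2.39), and its saline level of 66.2 CPM was the lowest of the 4. *SEMA6B* was at 83.9, 72.7, 87.5 and 13.3 CPM, low in clodronate+NMDA alone, with ratios of -2.72 (-4.11 to -1.57) over NMDA and -2.45 (-3.86 to -1.28) over clodronate+saline. *ROBO1* was at 165, 198, 168 and 74.0 CPM, with ratios of -1.18 (-1.76 to -0.63) and -1.42 (-1.99 to -0.88), the last being -2.65 without the cells of highest doublet scores.

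*ROBO1* and *SEMA6B* were thus low in the same library of horizontal cells. *SEMA3A* at 8.07, 34.5, 8.93 and 5.69 CPM stood high only in clodronate+saline, at 2.10 (0.63 to 3.87) over saline, and was -2.60 (-5.00 to -0.84) for clodronate+NMDA over clodronate+saline, or -1.94 as a mean over cells. *EFNB2* was -1.57 (-3.17 to -0.20) for clodronate+saline over saline and *UNC5C* 1.15 (0.17 to 2.19) for NMDA over saline, or 0.86 as a mean over cells.

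**Figure D4:**
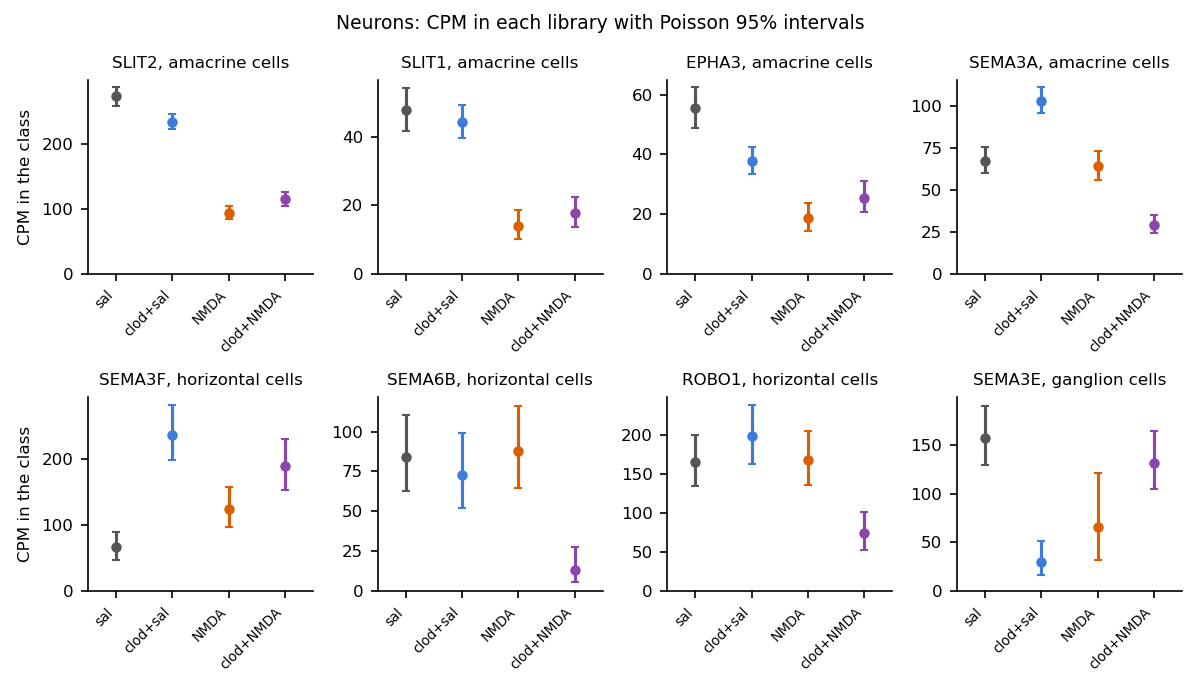
Each panel plots 1 member in 1 class of neurons, with the library on the x axis and CPM with its Poisson 95% interval on the y axis. In amacrine cells *SLIT2* (274, 235, 93.8 and 115 CPM) and *SLIT1* are low in both NMDA-treated libraries, and *SEMA6B* and *ROBO1* of horizontal cells are low only in clodronate+NMDA.

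Ganglion cells numbered 146, 98, 54 and 145, and 385, 483, 499 and 977 without the upper limit on genes per cell. Past 2-fold were 5 of 30 members for NMDA over saline (16.7%, against 13.8% of all genes), 8 of 34 for clodronate+saline over saline (23.5%, against 9.08%), 4 of 27 for clodronate+NMDA over NMDA (14.8%, against 13.4%) and 6 of 32 for clodronate+NMDA over clodronate+saline (18.8%, against 7.55%). *SEMA3E* was low in clodronate+saline, with a ratio of -2.39 (-3.34 to -1.55) over saline, and 2.14 (1.28 to 3.11) for clodronate+NMDA over clodronate+saline. Without the limit these were -0.94 and 0.68. Its NMDA over saline ratio was -1.26 (-2.36 to -0.32) and clodronate+NMDA over NMDA 1.01 (0.06 to 2.12), which were -0.47 and 0.21 without it.

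*UNC5C* in ganglion cells was at 88.4, 192, 59.1 and 108 CPM, with clodronate+saline highest and a ratio of 1.12 (0.62 to 1.63). *EPHA3* was lowest in that library, at -1.23 (-1.80 to -0.70) over saline and -0.92 as a mean over cells. *SEMA4G* at 55.4, 9.25, 78.8 and 29.0 CPM was -2.58 (-4.53 to -1.11) for clodronate+saline over saline, and -0.91 without the limit, -1.44 (-2.57 to -0.25) for clodronate+NMDA over NMDA and 1.65 (0.05 to 3.67) for clodronate+NMDA over clodronate+saline, the last 2 being -0.45 and 0.24 without it. *SEMA3A* at 79.4, 92.5, 98.5 and 35.5 CPM was low in clodronate+NMDA, at -1.47 (-2.49 to -0.42) and -1.38 (-2.20 to -0.60), but at 0.00 and -0.02 without the limit.

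Several plexin and Slit ratios of ganglion cells changed direction without the limit. *PLXNA2* at 30, 34.7, 78.8 and 16.1 CPM was 1.40 (0.23 to 2.50) for NMDA over saline and -0.62 without the limit, and for clodronate+NMDA over NMDA -2.29 (-3.66 to -0.95) and -0.21. *SLIT3* was 1.05 (-0.27 to 2.27) and -0.49 for NMDA over saline, and *PLXNA4* was 1.82 (0.46 to 3.34) and -0.34 for clodronate+saline over saline. *EPHB1* was 1.55 (0.05 to 2.96) and *EFNA2* -2.33 (-7.69 to 0.30) for NMDA over saline, which were 0.33 and -0.44 without the limit. *PLXNA2* was -1.10 (-2.42 to 0.15) for clodronate+NMDA over clodronate+saline, or -0.45 as a mean over cells.

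Photoreceptors held few members at measurable levels. In cones 1 of 11 was past 2-fold for NMDA over saline (9.09%, against 9.55% of all genes), 4 of 10 for clodronate+saline over saline (40.0%, against 16.9%), 2 of 13 for clodronate+NMDA over NMDA (15.4%, against 7.59%) and 3 of 14 for clodronate+NMDA over clodronate+saline (21.4%, against 9.26%). *SEMA4G* was at 145, 51.0, 75.0 and 51.7 CPM, highest in saline, at -1.51 (-2.23 to -0.81) for clodronate+saline over saline. *ROBO1* at 74.1, 26.4, 70.4 and 78.3 CPM was low only in clodronate+saline, at -1.49 (-2.53 to -0.50) over saline and 1.57 (0.71 to 2.52) for clodronate+NMDA over clodronate+saline. *SEMA6C* was -1.06 (-1.72 to -0.40) for clodronate+saline over saline, or -0.98 as a mean over cells.

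The other cone members rest on fewer UMIs. *SEMA6D* at 18.5, 43.9, 18.4 and 55.0 CPM was high in both clodronate libraries, at 1.25 (-0.07 to 2.82) over saline, which became -0.09 in gated cells, and 1.58 (0.59 to 2.67) over NMDA. *SLIT2* was 1.99 (0.27 to 4.36) for NMDA over saline, from 3 UMIs in saline, and *EPHA5* -1.14 (-2.37 to -0.02) for clodronate+NMDA over NMDA, or -2.27 in gated cells. *NRP1* was 2.17 (0.58 to 4.19) and *EPHA4* -1.75 (-3.56 to -0.24) for clodronate+NMDA over clodronate+saline.

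In rods 1 of 25 members was past 2-fold for NMDA over saline (4.0%, against 9.11% of all genes), 3 of 27 for clodronate+saline over saline (11.1%, against 10.8%), 1 of 24 for clodronate+NMDA over NMDA (4.17%, against 8.30%) and 2 of 25 for clodronate+NMDA over clodronate+saline (8.0%, against 9.21%). In this class rod markers summed to 28769, 17022, 13167 and 8128 CPM and cone markers to 5909.9, 4815, 4843 and 8585 CPM. In clodronate+NMDA the cone sum was thus above the rod sum, so the name of the class is least certain there. The part of this mixture in the rod results was not tested. *EPHA8*, an EphA receptor, was at 7.07, 6.42, 40.2 and 23.0 CPM, higher in both NMDA-treated libraries, with an NMDA over saline ratio of 2.51 (0.78 to 4.89) from 3 UMIs in saline. *SLIT2* at 66.0, 57.7, 66.4 and 23.0 CPM was low in clodronate+NMDA, at -1.53 (-2.94 to -0.35) over NMDA and -1.33 (-2.74 to -0.14) over clodronate+saline, which were -0.77 and -0.74 without the cells of highest doublet scores. *UNC5B* was 1.5 (0.18 to 3.08), *EPHA5* -1.16 (-1.99 to -0.36), or -0.99 as a mean over cells, and *SEMA4G* -1.22 (-2.19 to -0.30) for clodronate+saline over saline, and *PLXNA2* was -2.43 (-5.56 to -0.40) for clodronate+NMDA over clodronate+saline, or at most -0.68 without those cells, where clodronate+NMDA held none.

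Oligodendrocytes and NIRG cells had enough cells for the saline, clodronate+saline and NMDA libraries only. There 2 of 13 members were past 2-fold for NMDA over saline (15.4%, against 13.1% of all genes) and 3 of 14 for clodronate+saline over saline (21.4%, against 10.7%). *SEMA3D* was higher in NMDA than in saline, at 1.02 (0.71 to 1.34), and *UNC5A* lower, at -1.16 (-2.09 to -0.27). Without the cells of highest doublet scores these were 0.98 and -0.87. *EPHB1* at 73.8, 163 and 72.5 CPM was high in clodronate+saline, at 1.14 (0.38 to 1.97). *ROBO2* at 105, 36.5 and 136 CPM and *SLIT1* at 73.8, 22.5 and 122 CPM were low in that library, at -1.52 (-2.60 to -0.52) and -1.71 (-3.11 to -0.46), or -0.92 and -4.65 without those cells. The class joined cluster 21, with 45, 81 and 36 cells in these libraries, and cluster 22, with 29, 5 and 44 cells. *ROBO2* was at 92.6, 37.4 and 20.5 CPM in cluster 21 and at 143, 0 and 288 CPM in cluster 22. The part of this make-up in the results of the class was not tested.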

How the data were processed

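The authors deposited raw UMI counts per gene and barcode for 4 chick retina libraries, made with Cell Ranger 7.0.1 on GRCg7b per the submitters' processing notes. The study's methods name another build. As in the study, barcodes under 200 or over 2500 genes, or over 5% mitochondrial UMIs, were dropped. Log-scaled values of 2000 variable genes, members left out, gave 10 principal components and Leiden clusters at resolution 0.8 (scanpy 1.11.5, Python 3.11.15), named from marker lists. UMIs were summed per class and library. The 95% intervals are Poisson for levels, exact conditional binomial for ratios and Clopper-Pearson for shares (scipy 1.17.1). Medians used a pseudocount of 0.5. The study's Wilcoxon tests over cells were not repeated, since cells are not replicates.

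Described in full were up to 5 members per ratio and direction in MG, and up to 3 in other classes with at least 50 cells. They were past 2-fold with at least 20 UMIs and ranked by the interval bound nearest 0. By class, up to 3 members were described that were highest there in all libraries where it held at least 50 cells. Members and lists were chosen with earlier results of these data known. A further gene that marks a side of the retina is not reported here. A doublet caller marked 0 to 6 cells per library, too few to be used, so doublets remain. RefSeq (GRCg7b) gave positions for 55 of the 56 members. Alternatives included edgeR 4.0.16 TMM factors, other minimums, clusterings and marker gates.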

Additional observations from a re-analysis of the deposited data

Results flagged for a closer look

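These results stand out because a member was past 2-fold in opposite directions in different classes or arms, with both 95% counting intervals leaving out 0. With 1 library per group none of the differences was tested. For NMDA over saline, the log2 ratio of *EPHA3* was 1.52 in MG and -1.58 in amacrine cells, that of *PLXNA2* 1.40 in ganglion cells and -2.59 in MG, that of *SEMA3D* 1.02 in oligodendrocytes and NIRG cells and -2.05 in MG, that of *SLIT2* 1.99 in cones and -1.55 in amacrine cells, and that of *UNC5D* 1.5 in bipolar and -1.29 in amacrine cells. The ganglion cell value of *PLXNA2* was -0.62 without the upper limit on genes per cell, and the amacrine value of *EPHA3* was -0.88 in gated cells.

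For clodronate+saline over saline, *EFNA5* was 1.70 in MG and 1.33 in ganglion cells against -1.95 in bipolar cells, and *SLIT1* was 1.57 in MG and 1.16 in bipolar cells against -1.71 in oligodendrocytes and NIRG cells. For clodronate+NMDA over NMDA, *SEMA3C* was 2.38 in MG against -2.56 in bipolar and -1.08 in amacrine cells. For clodronate+NMDA over clodronate+saline, *SEMA3C* was 3.15 in MG and -1.22 in amacrine cells, and *NRP1* 2.17 in cones and -1.40 in amacrine cells. In the same comparison *ROBO1* was 1.57 in cones and -1.42 in horizontal cells, and *SEMA4G* 1.65 in ganglion and -1.38 in bipolar cells. The ganglion cell value of *SEMA4G* was 0.24 without the upper limit on genes per cell. In gated bipolar cells *SLIT1* was 0.76 for clodronate+saline over saline.

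Within ganglion cells *SEMA3E* was -1.26 for NMDA over saline and 2.14 for clodronate+NMDA over clodronate+saline. It was -2.39 for clodronate+saline over saline and 1.01 for clodronate+NMDA over NMDA. Both pairs of ratios rest on the same libraries. Without the upper limit on genes per cell the ratios were -0.47, 0.68, -0.94 and 0.21, all under 2-fold.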

How the results depend on the processing

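No paired analysis was possible because each group was 1 library, and leaving out a replicate was not possible for the same reason. The planned removal of called doublets was not run, since the caller marked at most 6 cells in a library. The 5% of cells with the highest doublet scores were dropped in its place, chosen after seeing the data, as were the added mixed cluster and the equal weights for clusters.

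The number of members past 2-fold in MG was 20 for NMDA over saline (12 to 28 over 11 alternatives), 6 for clodronate+saline over saline (4 to 14), 12 for clodronate+NMDA over NMDA (6 to 19) and 11 for clodronate+NMDA over clodronate+saline (3 to 16). In cells gated on markers it was 12 for NMDA over saline and 3 for clodronate+NMDA over clodronate+saline. With at least 50 UMIs it was 13 for NMDA over saline, 6 for clodronate+NMDA over NMDA and 4 for clodronate+NMDA over clodronate+saline. With at least 1 UMI it was 10 for clodronate+saline over saline and 19 for clodronate+NMDA over NMDA. At 1.5-fold it was 14 for clodronate+saline over saline, and without the cells of highest doublet scores 7 for clodronate+NMDA over clodronate+saline. For these alternatives neither the number of members with enough UMIs nor the share of all genes was computed. The counts alone thus cannot show whether the members changed more or less than other genes.

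Of 889 log2 ratios of named members recomputed, 839 lay within the counting interval of the reported ratio, 44 lay outside it with the same sign and 6 changed sign. In gated cells these were *UNC5C* in MG (clodronate+NMDA over NMDA, -0.88), *SEMA6D* in cones (clodronate+saline over saline, -0.09) and *SLIT3* in amacrine cells (clodronate+NMDA over NMDA, 0.30). Without the upper limit on genes they were, in ganglion cells, *PLXNA2* (NMDA over saline, -0.62), *SLIT3* (NMDA over saline, -0.49) and *PLXNA4* (clodronate+saline over saline, -0.34). The cause was not tested. Over all classes, 173 of 262 recomputed counts of members past 2-fold were within 1.5 times the reported count. TMM scaling shifted all ratios by -0.18 for NMDA over saline and 0.21 for clodronate+NMDA over NMDA in ganglion cells, and by -0.13 to 0.05 in the other classes.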

Other observations

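A cluster left unnamed (cluster 20, with 42, 99, 64 and 122 cells), led by the cholinergic genes *SLC18A3* and *CHAT*, held *SLIT2* at 955, 1041, 471 and 653 CPM and *EPHA3* at 153, 150.2, 179 and 247 CPM. Another unnamed cluster, led by the neuropeptide genes *NTS* and *PENK* (cluster 17, with 162, 228, 12 and 8 cells), held *SLIT2* at 328, 236, 97.3 and 142 CPM, of which the last 2 values rest on few cells.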
